A study of Mus musculus with 48 samples.

Results

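Mitochondrial ribosomal protein genes were taken as the genes whose GENCODE mouse symbol is Mrpl or Mrps followed by a number. The rule found 78 of the 20622 genes with a cytoplasmic RNA value, and each of the 78 also had a transcript among the 16269 with ribosome counts. By their place in the mitochondrial ribosome (mitoribosome), 51 belong to the large subunit, 26 to the small subunit and 1, Mrps36, carries the symbol but is known as a subunit of the 2-oxoglutarate dehydrogenase complex. The symbol does not always give the subunit: Mrps30 and Mrps18a encode large subunit proteins and were counted there. The livers came from an experiment on oncogenic WNT and MYC signalling in hepatocytes, in which ribosome-protected fragments (RPFs, the mRNA pieces shielded by a translating cytosolic ribosome) and cytoplasmic RNA of the same lysate were sequenced for each mouse. WT mice, mice with 1 Ctnnb1ex3/+ allele (B), mice with R26-LSL-MYC (M) and mice with both, Ctnnb1ex3/+; R26-LSL-MYC (BM), were compared 4 and 10 days after induction, with 3 mice a genotype and day, 24 mice and 48 libraries in all. All were labelled as males and were 2 to 4 months old, and all, WT included, had received AAV8.TBG.PI.Cre.rBG. The labels give 2e+11 genome copies per mouse in 1 field and the same number per ml in another. The paper's methods give this number per ml, with an injected volume, so the label per mouse is in doubt. The TBG promoter drives Cre in hepatocytes, so the other cells of the liver keep the alleles unrecombined. In Ctnnb1ex3 the recombined allele gives a β-catenin that is not degraded, and in R26-LSL-MYC Cre removes a stop cassette in front of a MYC transgene at the Rosa26 locus.

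The mitoribosome translates the few mRNAs of mitochondrial DNA, which encode core subunits of the respiratory chain and of ATP synthase. All of its proteins are encoded in the nucleus, made by cytosolic ribosomes and imported. The RPFs described here thus report the cytosolic ribosomes on each mRNA, relative to other genes. They do not report the amount of protein made or how active the mitoribosomes are. Part of these proteins have homologues in the bacterial ribosome, and the others were acquired in mitochondria. Translation of mitochondrial mRNAs also needs dedicated initiation and elongation factors, aminoacyl-tRNA synthetases and assembly factors, and genes of mitochondrial biogenesis are among the known targets of MYC.

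RPF libraries held 9742197 to 14380713 counts and RNA libraries 3254141 to 6540116. BM mouse 1 of day 10 stood apart from the other BM mice of that day. Its root mean square log2 difference to mice 2 and 3 was 0.687 and 0.783 in RPFs, against 0.274 between mice 2 and 3 and 0.209 to 0.454 between the 21 pairs of mice within the other groups. In RNA the same values were 0.553, 0.613, 0.261 and 0.23 to 0.443. The counts and the changes of the main genes of BM at day 10 are therefore given with and without this mouse, and other values of that group are from all 3 mice. The 6 hepatocyte markers all had RNA counts in every library, as did the markers of several other liver cell types. The levels of several cell types moved with the genotypes. The summed RNA of the 6 hepatocyte markers, in CPM (counts scaled by library size), was 81810 to 92900 in WT, 51230 to 68890 in M and 31020 to 38840 in BM at day 4, and 87540 to 89670, 39220 to 48270 and 29360 to 37070 at day 10. The summed RNA of the 7 Kupffer cell markers was 289 to 351 CPM in WT and 124.5 to 148.5 in BM at day 4, but 278 to 333 in WT and 334 to 380 in BM at day 10, and that of the 6 stellate cell markers was 468 to 566 in WT and 205 to 241 in BM at day 10. The sums do not speak for each marker. In RPFs of BM at day 10 without mouse 1, 2 of the 6 hepatocyte markers were higher than WT and 4 lower (edgeR adjusted p under 0.1). In that fit 33.4% of all genes were higher and 32.9% lower. No marker was at 0 in every library. Fewer cells of a type and less RNA per cell cannot be told apart in such bulk samples, and the part of these shifts in the changes below was not tested.

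In WT liver the mitochondrial ribosomal protein genes were read by ribosomes at quite unequal levels, although each protein is present once in a mitoribosome, apart from the stalk protein Mrpl12. Per kilobase of counted coding sequence, and over the 6 WT mice of both days, the mean RPF level of 77 genes ran from 17.1 to 232 CPM per kb with a median of 57.6. The 90th percentile was 5.49 times the 10th. The highest levels were those of Mrpl33 (232 ± 24.4 CPM per kb, SD), Mrps21 (209 ± 20.6) and Mrps14 (190 ± 14.1). The lowest were those of Mrps9 (17.1 ± 1.91), Mrpl19 (19.0 ± 0.44) and Mrpl37 (20.2 ± 2.23), a mitochondria-specific protein of the large subunit. Neighbours in the order differed by less than their spread, as Mrps14 and Mrpl51 (188 ± 15.8) show, while the top and the bottom of the order were far apart. In RNA the 77 genes ran from 2.31 to 141 TPM (transcript abundance scaled to a common total per library), with a median of 25.9. The RPF level per kb and the RNA TPM rose together across genes (Pearson r = 0.64 and Spearman rho = 0.66 on log2 values, 77 genes that share the libraries). The median RPF level was 60.4 and 54.3 CPM per kb for the bacterial homologues and mitochondria-specific proteins of the large subunit, and 67.1 and 50.5 for those of the small subunit. For scale, 80 cytosolic ribosomal protein genes had a median of 259 CPM per kb in RPFs and 468 TPM in RNA. The gene left out here is Mrps33, whose chosen transcript, 1 of 3 measured isoforms, has 34 codons and a stop codon, of which 15 bases remain once the first 20 and last 10 codons, stop included, are dropped. The isoform with 106 codons had a mean of 31.0 TPM over the 24 mice and the chosen one 35.1 TPM, so the RPF counts of Mrps33 do not measure its translation.

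**Figure D1:**
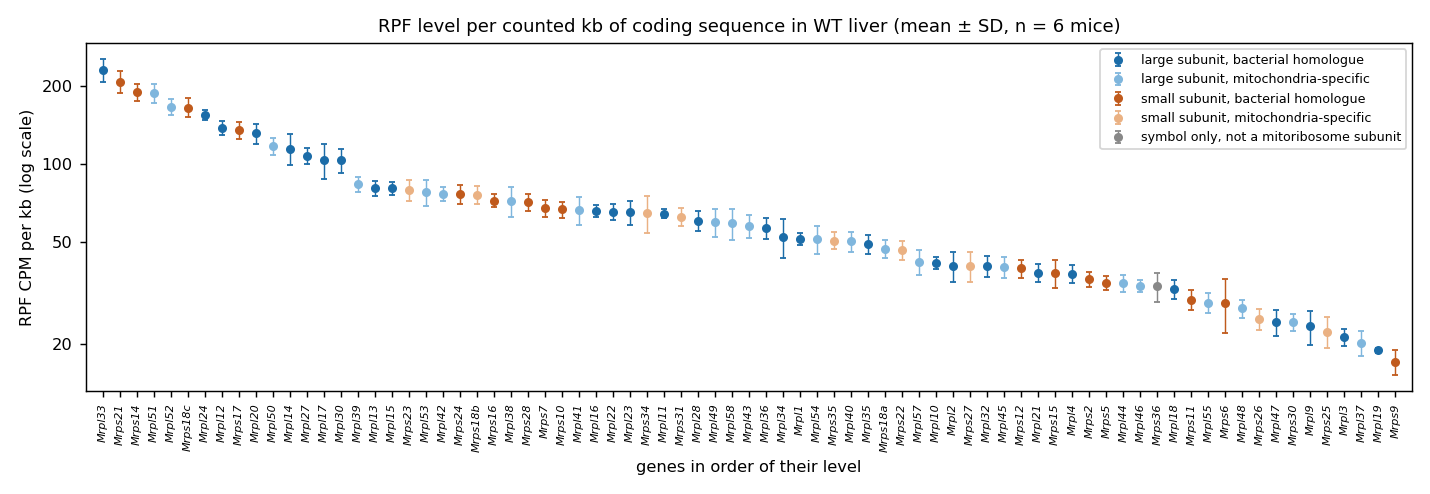
Mean RPF level of 77 mitochondrial ribosomal protein genes in WT liver, in CPM per kb of counted coding sequence on a log axis, in order of level. Points are means and bars the SD over 6 WT mice, and colours mark the subunit and whether the protein has a bacterial homologue. Levels run from 232 for Mrpl33 down to 17.1 for Mrps9, with proteins of both subunits along the whole range.

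The 78 genes held a larger share of the RPFs than in WT in all 3 genotypes, least so in B, and many of them rose in M and BM. As a share of all RPF counts, the 78 genes held 0.197% to 0.209% in WT and 0.216% to 0.228% in B at day 4, against 0.266% to 0.282% in M and 0.300% to 0.339% in BM. At day 10 the shares were 0.198% to 0.227% in WT, 0.236% to 0.265% in B, 0.295% to 0.304% in M and 0.315% to 0.378% in BM. Every B, M and BM mouse lay above every WT mouse of its day in this share. The mean share was 1.07, 1.35 and 1.55 times the WT mean in B, M and BM at day 4 and 1.15, 1.38 and 1.63 times at day 10. Part of the difference was common to most genes. The counts were therefore also scaled with TMM, which sets each library by the bulk of its genes, and the summed TMM-scaled RPF CPM of the 78 genes at day 4 was then 1.14 times the WT mean for M and equally for BM, at day 10 it was 1.17 times for M and 1.27 times for BM, and for B it was 1.00 and 0.97 times. Fold changes and calls below use TMM and a call means an edgeR adjusted p under 0.1. When the library totals were used instead, an alternative chosen after the data were seen, the median change of all genes tested moved from 0.01 to 0.23 in M and from about 0 to 0.42 in BM at day 4 on the log2 scale, and from about 0 to 0.25 in M and from 0.03 to 0.41 in BM at day 10. All changes given here are thus relative to the bulk of the genes.

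**Figure D2:**
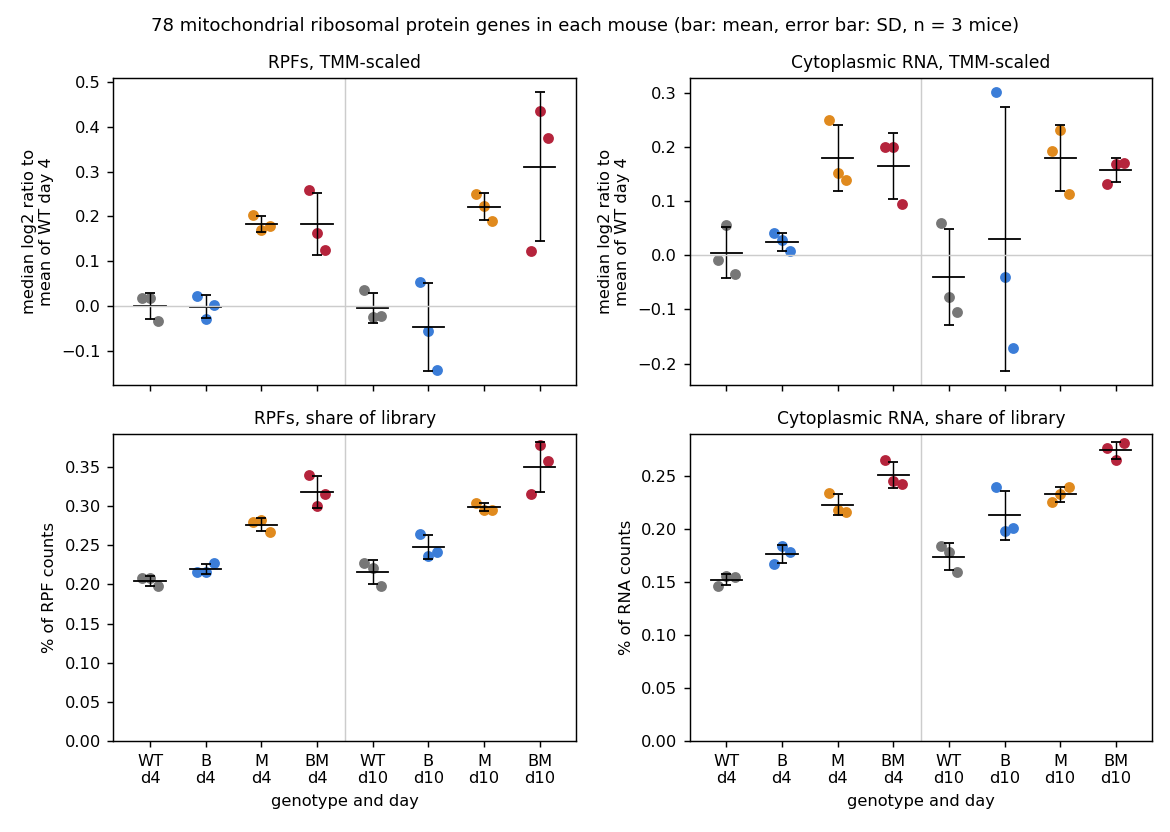
The 78 mitochondrial ribosomal protein genes in each of the 24 mice. The upper panels plot the median over the genes of the log2 ratio to the WT mean of day 4, for TMM-scaled RPFs (left) and RNA (right), and the lower panels the share of all RPF or RNA counts in percent. Points are mice, and bars are means with the SD of 3 mice. M and BM lie above WT in both shares on both days, and B mouse 1 of day 10 has a high RNA median (0.30) beside the other B mice (-0.04 and -0.17).

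At day 4, 31 of 77 genes rose in RPFs in M, against 18.5% of all 11115 genes tested, and 1 fell, against 14.7%. The median change of the 77 genes was 0.22 on the log2 scale, beside 0.01 over all genes, and 68 of the 77 were above 0. Without M mouse 1 the calls were 15 higher (14.2% of all genes) and 1 lower (11.5%). Without M mouse 3 or WT mouse 3 they were 21 (14.6%) and 20 (16.1%), all higher. DESeq2 called 16 higher (14.4%) and 0 lower (12.3%) in RPFs of M and 8 higher (8.9%) and 0 lower (7%) in its RNA. In BM, 40 of 78 rose (26.2% of all 11375 genes) and 2 fell (24.7%), with a median of 0.23 beside about 0. RNA moved the same way on the whole. In M 18 of 78 rose (13.5% of all genes) and 1 fell (10.3%), with a median of 0.19, and in BM 20 of 78 rose (21.3%) and 2 fell (20.6%), with a median of 0.15. In RNA of BM the share of genes that rose, 25.6%, was thus near that of all genes. Without M mouse 1 or WT mouse 3 the RNA calls in M were 8 (8.79% of all genes higher) and 9 (9.32%), all higher. Without BM mouse 1 the RNA calls in BM were 11 higher (17.7%) and 1 lower (16%), and DESeq2 called 13 higher (16.5%) and 0 lower (15.9%). The changes were small and shared by many genes, with the middle 50% of the fitted log2 RPF changes between 0.14 and 0.31 in M and between 0.05 and 0.35 in BM. The M and BM comparisons share the 3 WT mice of the day.

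The largest RPF increase in M at day 4 was that of Mrps35, a mitochondria-specific protein of the small subunit (ENSMUSG00000040112, chromosome 6, 146944205 to 146975489 in GRCm39). Its TMM-scaled RPF CPM was 38.8, 43.6 and 42.5 in WT, 65.3, 63.2 and 63.2 in M and 58.6, 55.9 and 58.6 in BM. Every M and BM mouse was above every WT mouse, and the 3 M mice were above the 3 BM mice. The fitted log2 change was 0.65 ± 0.08 in M (SE, edgeR adjusted p = 0.000369) and 0.50 ± 0.08 in BM (edgeR adjusted p = 0.000612). Mrpl42, a mitochondria-specific protein of the large subunit (ENSMUSG00000062981, chromosome 10, 95316559 to 95346150), came next in M with 24, 27.4 and 26.9 CPM in WT, 40.8, 34.9 and 36.4 in M and 40.8, 33.0 and 36.6 in BM. Again no M or BM mouse reached down to WT, and the changes were 0.55 ± 0.10 in M (edgeR adjusted p = 0.00286) and 0.52 ± 0.10 in BM (edgeR adjusted p = 0.00202). Mrps30, a large subunit protein despite its symbol (ENSMUSG00000021731, chromosome 13, 118513808 to 118523838), had 28, 33.1 and 31.5 CPM in WT, 38.4, 39.5 and 47.3 in M and 46.5, 50.6 and 46.0 in BM. It rose by 0.47 ± 0.11 in M (edgeR adjusted p = 0.0107) and 0.65 ± 0.10 in BM (edgeR adjusted p = 0.000245). Its RNA rose as well, by 0.50 ± 0.12 in M and 0.71 ± 0.12 in BM (edgeR adjusted p = 0.0135 and 0.00042).

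Mrps10, a small subunit protein with a bacterial homologue, rose by 0.48 ± 0.10 in M at day 4 (edgeR adjusted p = 0.00775), from 34.7, 36.2 and 32.8 to 52.5, 40.8 and 48.2 CPM, whereas its change in BM was 0.20 ± 0.09 (edgeR adjusted p = 0.102). Mrpl12 forms the flexible stalk that recruits translation factors to the large subunit. It rose from 66.9, 73.9 and 70.8 CPM in WT to 95.4, 89.1 and 98.8 in M and 88.4, 92.5 and 86.7 in BM, by 0.45 ± 0.08 and 0.36 ± 0.08 (edgeR adjusted p = 0.00196 and 0.0031). The groups of mice did not overlap for Mrpl12 in either comparison. In BM the largest increase was that of Mrpl19, a bacterial homologue of the large subunit (ENSMUSG00000030045, chromosome 6, 81934832 to 81942943), and the lowest but 1 of the set by level in WT. It had 15.1, 14.3 and 15.2 CPM in WT, 17.2, 17.5 and 18.1 in M and 26.5, 23.5 and 21.0 in BM. Every BM mouse was above every M mouse, and every M mouse above every WT mouse. The changes were 0.28 ± 0.10 in M and 0.69 ± 0.11 in BM (edgeR adjusted p = 0.0648 and 0.000541), and the difference between BM and M was 0.41 ± 0.11 (edgeR adjusted p = 0.0178). Mrps6, a small subunit protein at low counts, rose by 0.42 ± 0.13 in M and 0.69 ± 0.15 in BM (edgeR adjusted p = 0.0353 and 0.00298), with 8, 9.71 and 8.70 CPM in WT and 15.5, 11.6 and 14.6 in BM.

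Few genes of the set went the other way. Mrps12, the homologue of the bacterial protein of the decoding centre (ENSMUSG00000045948, chromosome 7, 28439066 to 28441680), had 14.9, 12.6 and 13.3 CPM in WT, 11.5, 10.2 and 9.36 in M and 11.1, 11.3 and 10.1 in BM at day 4. All M and BM mice were below the WT mice. It fell by 0.37 ± 0.13 in M and by 0.31 ± 0.12 in BM on the log2 scale (edgeR adjusted p = 0.0593 and 0.0599), and it was the only 1 of the 78 genes called lower in 3 of the 4 comparisons of M or BM with WT. Its RNA change was -0.10 ± 0.17 in M and -0.12 ± 0.17 in BM (edgeR adjusted p = 0.729 and 0.632). Mrps31, a mitochondria-specific protein of the small subunit, fell in BM by 0.29 ± 0.08 (edgeR adjusted p = 0.0136), from 65.8, 74.8 and 66.8 to 57.4, 54.5 and 54.7 CPM. The direction of both in BM at day 4 depended on TMM: with library totals they were 0.11 and 0.14 above WT on the log2 scale, against a median of 0.42 over all genes (edgeR adjusted p = 0.466 and 0.218). With DESeq2 neither change of Mrps12 passed the threshold (adjusted p = 0.144 in M and 0.156 in BM). The calls of Mrps12 were also lost without WT mouse 1 (-0.30 in M and -0.24 in BM), WT mouse 3 (-0.38 and -0.33), M mouse 2 (-0.36), M mouse 3 (-0.32) or BM mouse 3 (-0.26), with edgeR adjusted p = 0.101 to 0.200.

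**Figure D3:**
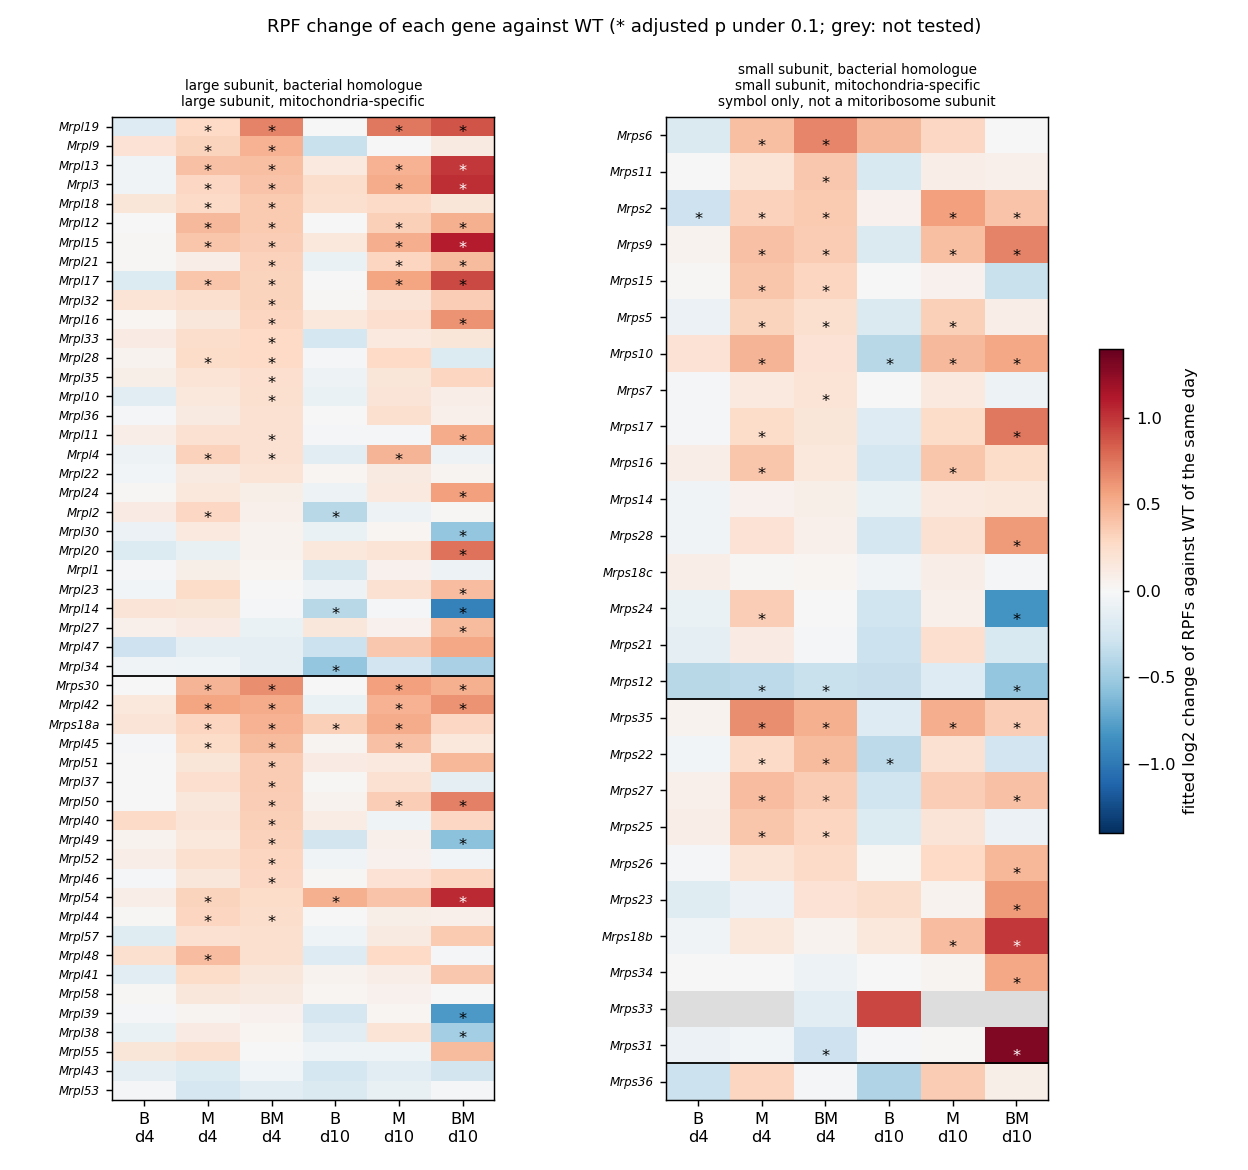
Fitted log2 change of RPFs of each gene against the 3 WT mice of the same day (colour, red higher and blue lower), for B, M and BM at day 4 (d4) and day 10 (d10), with large subunit genes on the left and small subunit genes and Mrps36 on the right. An asterisk marks an edgeR adjusted p under 0.1, grey marks a gene not tested, and lines part bacterial homologues from mitochondria-specific proteins. The M and BM columns are mostly red, and BM at day 10 holds both the strongest reds (Mrps31, 1.30) and the strongest blues (Mrpl14, -0.94). The blue of Mrps12 and Mrps31 in BM at day 4 turns above 0 with library totals in place of TMM.

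At day 10, 20 of 77 genes were higher in RPFs in M (10.6% of all 11300 genes) and 0 lower (8.8%). The median was 0.19, beside about 0 over all genes. By unadjusted p under 0.05 there were 26 genes, all higher (14.8% of all genes), and DESeq2 called 15 higher (8.86%) and 0 lower (7.39%). Without M mouse 1, M mouse 2 or WT mouse 3 the count was 10 (6.1%), 12 (7.23%) and 11 (5.51%), all higher. Mrpl19, which also led in BM at day 4, changed most, with 15.2, 14.9 and 15.3 CPM in WT and 28.3, 24 and 23.8 in M, a change of 0.74 ± 0.11 (edgeR adjusted p = 0.00676). Mrps2, a bacterial homologue of the small subunit, came next with 0.58 ± 0.11 (edgeR adjusted p = 0.0174), from 30.5, 25.8 and 26.3 to 45.8, 39.8 and 38.2 CPM. In RNA 15 of 77 genes rose (8.53% of all genes) and 0 fell (7.12%), and DESeq2 called 6 higher (5.49%). The RNA count was 4 (4.74%) or 9 (6.35%) when WT mouse 3 or 2 was left out and 5 (4.57%) or 8 (6.25%) when M mouse 1 or 2 was left out. No difference between the M effect of day 10 and that of day 4 was called for the set, in RPFs over 77 genes (1.18% of all genes called) or in RNA over 78 genes (1.2%), and by unadjusted p under 0.05 there were 6 (12.5%) and 2 (10.1%).

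In BM at day 10 genes of the set were called in both directions, as were genes at large. In RPFs 29 of 77 genes rose (24.5% of all 11346 genes) and 7 fell (22.3%), with a median of 0.29 beside 0.03 over all genes. Without mouse 1, 42 of 77 rose (33.4% of all genes) and 10 fell (32.9%), and these included all 29 and all 7 of the earlier calls. With 1 of the other 5 mice left out there were fewer calls. The set had 12 higher (15.8% of all genes) and 3 lower (15.6%) without WT mouse 3, 13 (17.9%) and 6 (17.1%) without WT mouse 2, and 13 (18%) and 3 (15.3%) without BM mouse 2. It had 17 (16.2%) and 4 (15.9%) without WT mouse 1 and 18 (19.2%) and 4 (16.8%) without BM mouse 3. In RNA 26 of 78 rose (22.9%) and 10 fell (22.8%), and DESeq2 called 19 higher (18.9%) and 4 lower (19.8%). Without mouse 1, 27 rose (27.9%) and 12 fell (29.2%), among them 25 of the 26 and all 10. Leaving out another mouse could lower the RNA count, and its range stands in the closing section. With all mice 37.7% of the set rose and 9.09% fell in RPFs, above and below the shares of all genes, but without WT mouse 2, WT mouse 3 or BM mouse 2 the share that rose was no longer above that of all genes.

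Mrps31 (ENSMUSG00000031533, chromosome 8, 22901363 to 22921195) had the largest fitted change of BM at day 10, and the mice disagreed on it. Its RPF CPM was 60.4, 69.4 and 61.7 in WT and 61.6, 181 and 231 in BM. BM mouse 1 thus lay within the WT range, and mice 2 and 3 were far above it. The fitted change was 1.30 ± 0.42 (edgeR adjusted p = 0.0429), and 1.68 ± 0.13 without mouse 1 (edgeR adjusted p = 2.101e-06). Leaving out any of the other 5 mice ended the call, with changes of 0.92 to 1.34 (edgeR adjusted p = 0.11 to 0.136). The RNA of Mrps31 moved in the same mice, with 44.7, 32.3 and 37.1 CPM in WT and 37.6, 76.8 and 100 in BM.

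Other increases of BM at day 10 were seen in every mouse. Mrpl15, a large subunit protein with a bacterial homologue (ENSMUSG00000033845, chromosome 1, 4843429 to 4855972), had 68.0, 58.2 and 63.0 RPF CPM in WT, 92.8, 89.7 and 87.1 in M and 118, 142 and 150 in BM. The 3 genotypes did not overlap, with BM highest. It rose 2.14-fold in BM, by 1.10 ± 0.16 on the log2 scale (edgeR adjusted p = 0.00213, and 1.20 ± 0.12 without mouse 1), and its RNA rose by 1.20 ± 0.16 (edgeR adjusted p = 0.000804). Mrpl54, a mitochondria-specific protein at the base of the stalk, rose from 15.6, 16.7 and 13.0 to 29.3, 31.8 and 32.9 CPM, by 1.04 ± 0.16 (edgeR adjusted p = 0.00281). Mrpl3 and Mrpl13, bacterial homologues of the large subunit, rose by 1.03 ± 0.23 and 0.99 ± 0.18 (edgeR adjusted p = 0.0121 and 0.0056). For Mrpl3 the BM mice had 24.4, 37 and 45 CPM and for Mrpl13 53.6, 73.1 and 81.6, against 16.6, 18.3 and 16.6 and 35.0, 34.1 and 34.9 in WT. Mouse 1 was the lowest BM mouse for each of these 4 genes, yet above WT, and without it Mrpl54, Mrpl3 and Mrpl13 rose by 1.09, 1.25 and 1.15.

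The genes that fell in BM at day 10 were Mrpl14, Mrps24, Mrpl39, Mrpl49, Mrpl30, Mrps12 and Mrpl38. Mrpl14, whose bacterial homologue sits at the interface of the subunits (ENSMUSG00000023939, chromosome 17, 45996373 to 46010480), had 49.1, 35.0 and 41.8 CPM in WT, 41.4, 40.3 and 42.8 in M and 30.2, 20.4 and 15.4 in BM. The BM mice lay below all others, with mouse 1 nearest to WT. It fell by 0.94 ± 0.26 on the log2 scale (edgeR adjusted p = 0.0251). Mrpl39, a mitochondria-specific protein of the large subunit (ENSMUSG00000022889, chromosome 16, 84502276 to 84533793), had 78.4, 76.5 and 71.5 CPM in WT and 48.6, 40.3 and 42.3 in BM, and it fell by 0.80 ± 0.14 (edgeR adjusted p = 0.00453). Its RNA fell by 0.85 ± 0.16 (edgeR adjusted p = 0.00387). Mrps24, a small subunit protein with a bacterial homologue, went from 36.1, 31.6 and 32.9 CPM in WT to 27.8, 16.4 and 12.4 in BM, a fitted change of -0.84 ± 0.28 (edgeR adjusted p = 0.0487). Mrpl49 and Mrpl30 changed by -0.58 ± 0.19 and -0.55 ± 0.19 (edgeR adjusted p = 0.0471 and 0.0558). Mrpl30 was called in opposite directions in RPFs and RNA, as its RNA rose by 0.35 ± 0.13 (edgeR adjusted p = 0.0579), with 60.4, 49.9 and 55.0 CPM in WT and 68.8, 69.9 and 72.5 in BM. Without mouse 1 Mrpl18 was too, higher in RPFs (0.41) and lower in RNA (-0.55, edgeR adjusted p = 0.0633 and 0.024). With library totals Mrpl39 was still called lower (-0.42, edgeR adjusted p = 0.0635), whereas Mrpl14 (-0.55), Mrps24 (-0.45), Mrpl49 (-0.20) and Mrpl30 (-0.16) kept their sign and were not called (edgeR adjusted p = 0.152 to 0.575). The call of Mrps24 was lost without WT mouse 1 (-0.80), WT mouse 3 (-0.87), BM mouse 2 (-0.75) or BM mouse 3 (-0.62), that of Mrpl49 without WT mouse 1 (-0.49), WT mouse 3 (-0.52) or BM mouse 2 (-0.51), and that of Mrpl30 without WT mouse 2 (-0.55), WT mouse 3 (-0.50), BM mouse 2 (-0.52) or BM mouse 3 (-0.41). Those of Mrpl14 and Mrpl39 held without any 1 of the 6 mice. Without BM mouse 1 the changes were -1.24 for Mrpl14, -1.23 for Mrps24, -0.88 for Mrpl39, -0.73 for Mrpl30, -0.58 for Mrpl49, -0.55 for Mrpl38 and -0.50 for Mrps12, and all were called.

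**Figure D4:**
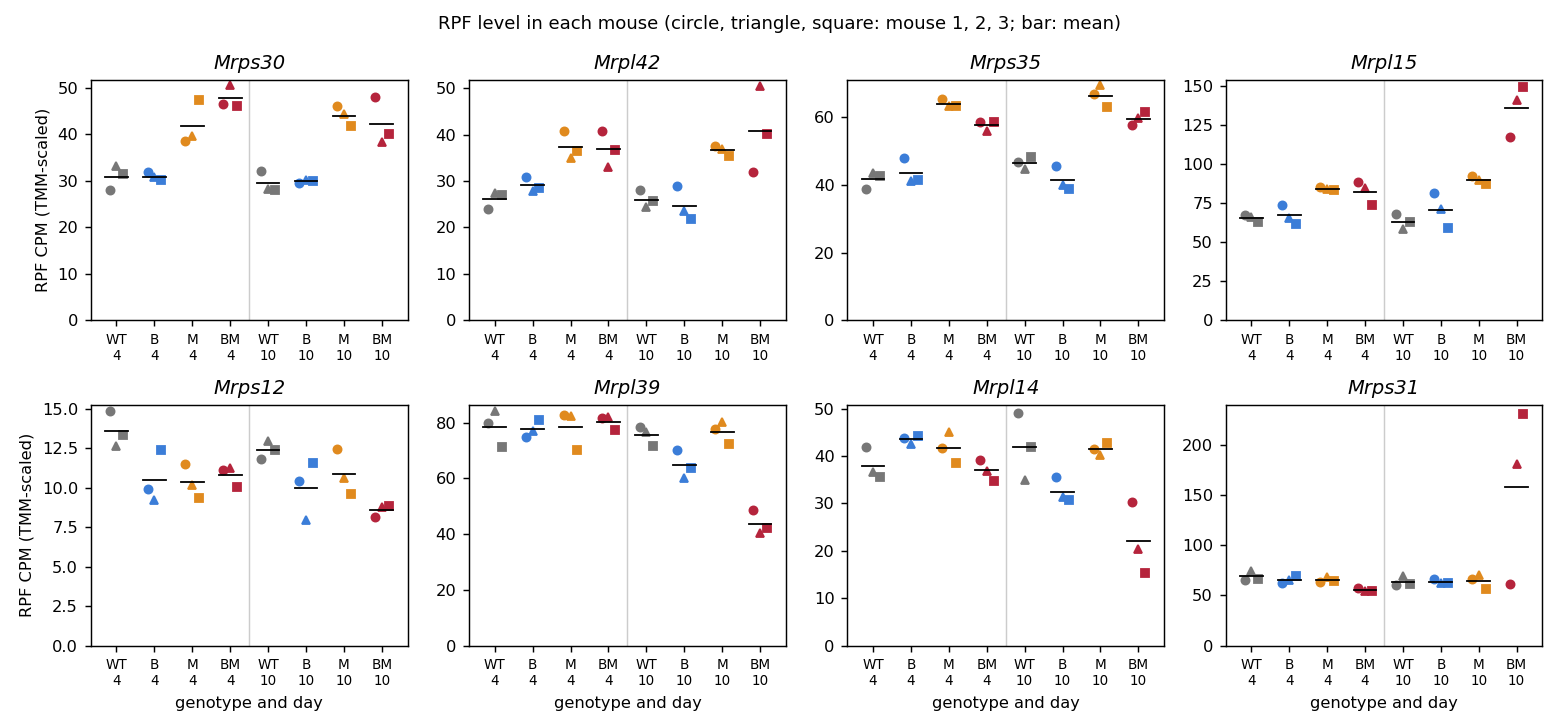
TMM-scaled RPF CPM of 8 genes in each mouse, by genotype and day (4 or 10), with circles, triangles and squares for mice 1, 2 and 3 and a bar for the mean. Mrps30, Mrpl42, Mrps35 and Mrpl15 lie above WT in M and BM on both days. Mrps12, Mrpl39 and Mrpl14 are low in BM at day 10, and for Mrps31 BM mouse 1 of day 10 (61.6) stays at the WT level beside mice 2 and 3 (181 and 231). Relative to library totals Mrps12 in BM at day 4 was not below WT.

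Few of the genes were called with β-catenin activation alone. At day 4, 0 of 77 genes rose in RPFs in B (6.21% of all 11058 genes) and 1 fell (6.26%), namely Mrps2, by 0.29 ± 0.09 (edgeR adjusted p = 0.0776), and in 5 of the 6 fits without 1 mouse there was no call. In RNA 0 rose (4.41%) and 0 fell (3.73%). By unadjusted p under 0.05 there were 5 genes in RPFs (21.5% of all genes) and 2 in RNA (17.3%), and DESeq2 called 0 in RPFs. At day 10, 2 of 78 rose in RPFs (13.1% of all 11454 genes), Mrpl54 and Mrps18a, and 5 fell (12.1%), namely Mrpl14, Mrpl2, Mrpl34, Mrps10 and Mrps22. None of these 7 calls held in all 6 fits that left out 1 mouse, and without B mouse 2 there were 0 calls among the set (8.19% of all genes higher and 6.93% lower). This split turned with the scaling, as library totals gave 17 genes higher and 0 lower in RPFs, with a median of 0.21 over the set against 0.27 over all genes. The 17 stand without the share of all genes called under that scaling, so they do not set these genes apart. In RNA 2 rose (8.14%), Mrps18a and Mrps26, and 0 fell (7.48%), but neither was called without B mouse 1, WT mouse 2 or WT mouse 3. The summed RNA of the hepatocyte markers was 30770 to 37250 CPM in these B livers and 29360 to 37070 in BM of the same day.

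BM was compared directly with M, since both carry the MYC allele. At day 4, 5 of 78 genes were higher in BM in RPFs (18.8% of all 11411 genes), namely Mrpl19, Mrpl45, Mrpl50, Mrpl51 and Mrps23, and 8 were lower (19.3%), Mrpl2, Mrpl23, Mrpl27, Mrps10, Mrps16, Mrps24, Mrps31 and Mrps35. In RNA 2 were higher (14.6%) and 4 lower (15.9%). The set thus showed fewer calls than all genes in each direction, and the median difference was about 0 in RPFs. Every fit without 1 of the mice gave fewer RPF calls in the set, and the ranges stand in the closing section. With library totals 33 genes were higher and 0 lower in RPFs, but the median was then 0.22 for the set and 0.21 for all genes. The share of all genes called under that scaling is not given here, so the 33 do not set these genes apart. At day 10, 7 of 78 were higher in BM in RPFs (16% of all 11524 genes) and 8 lower (16.7%), and in RNA 11 were higher (16.3%) and 14 lower (16.6%). Single mice weighed heavily here. Without BM mouse 1, 31 of 77 genes were higher in RPFs (30.5% of all genes) and 14 lower (28.6%). Without M mouse 1, 0 were higher (5.45%) and 1 lower (7.16%). Mrpl39 was the 1 gene called in RPFs whichever of the 6 mice was left out, with 77.7, 80.1 and 72.4 CPM in M against 48.6, 40.3 and 42.3 in BM, a difference of -0.83 ± 0.14 (edgeR adjusted p = 0.00935), and -0.86 ± 0.10 without BM mouse 1.

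The BM effect against WT at day 10 was also set against that at day 4, in a test of the difference over 12 mice. In RPFs it was higher at day 10 for 13 of 78 genes (17.2% of all 11728 genes) and lower for 10 (18.6%). In RNA it was higher for 10 (13.4%) and lower for 10 (16.6%). Without mouse 1 the RPF counts were 23 (25.8%) and 15 (31.5%) and the RNA counts 17 (19.7%) and 15 (23.8%), and every earlier call was kept. Some fits without another mouse gave fewer calls than all mice did, and the ranges stand in the closing section. Mrpl49 turned from higher to lower: its BM mice had 34.4, 27.9 and 30.5 RPF CPM at day 4 against 26.4, 25.9 and 23.1 in WT, and 16.4, 14.7 and 17.6 at day 10 against 26.9, 18.8 and 26.1. The difference of the effects was -0.89 ± 0.21 (edgeR adjusted p = 0.00906). Mrps22, a mitochondria-specific protein of the small subunit named here after its values were seen, went from 0.44 ± 0.08 above WT at day 4 to a change of -0.27 ± 0.14 at day 10, a difference of -0.70 ± 0.15 (edgeR adjusted p = 0.0066). For Mrpl39 the change was 0.06 ± 0.08 at day 4 and the difference -0.85 ± 0.15 (edgeR adjusted p = 0.00204), and for Mrpl15 the difference was 0.76 ± 0.17 (edgeR adjusted p = 0.00677). Without BM mouse 1 of day 10 the differences were -0.92 for Mrpl49, -0.67 for Mrps22, -0.95 for Mrpl39 and 0.83 for Mrpl15, and all were called.

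RPF and RNA changes were compared gene by gene. Across genes, which are not independent and whose RPF and RNA changes come from the same mice, Pearson's r between the log2 changes was 0.61 in M and 0.74 in BM at day 4 and 0.75 in BM at day 10, over 77, 78 and 77 genes. It was lower in B, at 0.39 on day 4 and 0.47 on day 10 over 77 and 78 genes, and 0.60 in M at day 10 over 76. Translational efficiency (TE), the RPF change left after the RNA change, was tested as an interaction of genotype and library type. The main fit took the RPF and the RNA library of a mouse as independent. TE was called for 0 of 77 genes in B at day 4 (0.0488% of all genes called), 0 of 78 in B at day 10 (0.0564%), 0 of 77 in M at day 4 (0.971%) and 0 of 76 in M at day 10 (0%). In BM it was called for 1 of 78 at day 4 (2.23%) and 0 of 77 at day 10 (0.259%). By unadjusted p under 0.05 there were 1, 4, 4, 4, 2 and 3 genes in the same order, beside 2.83%, 5.25%, 7.28%, 3.2%, 10.1% and 10% of all genes. In B at day 10 the fitted TE change was above 0 for 17 of 78 genes, with a median of -0.14. Over all genes 49.45% were above 0 and the median was -0.003. The RNA of that group leaned on B mouse 1, whose median over the set was 0.302 against -0.04 and -0.172 in mice 2 and 3 (log2 ratio to WT of day 4). The counts of 0 TE calls do not show that TE was equal: the median half-width of the 95% interval of a gene's log2 TE change was 0.32 in each comparison of day 4, and at day 10 it was 0.41 for B, 0.37 for M and 0.48 for BM, wider than the median RPF changes.

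The TE call was Mrps26, a mitochondria-specific protein of the small subunit (ENSMUSG00000037740, chromosome 2, 130405658 to 130410616). In BM at day 4 its RNA was 22.2, 20.2 and 22.1 CPM against 9.35, 8.34 and 11.8 in WT, an increase of 1.14 ± 0.16 on the log2 scale (edgeR adjusted p = 0.000102). Its RPFs were 15.8, 14.2 and 15.3 CPM against 14.2, 10.8 and 13.2, a change of 0.26 ± 0.13 (edgeR adjusted p = 0.118). RNA was thus well above WT in every BM mouse, while the RPFs of the groups met, with BM mouse 2 about level with WT mouse 1. TE fell by 0.88 ± 0.20 (edgeR adjusted p = 0.0338), and the fitted TE change was also negative in B at day 4 (-0.60), M at day 4 (-0.54), B at day 10 (-0.59), M at day 10 (-0.28) and BM at day 10 (-0.18), none of them called. The call was lost when WT mouse 1 (-0.76), BM mouse 2 (-0.88) or BM mouse 3 (-0.86) was left out, with edgeR adjusted p = 0.117 to 0.204, and it held with the mouse as a block (edgeR adjusted p = 0.00324). The RNA of Mrps26 was called higher in all 4 comparisons of M or BM with WT, but that of BM at day 10 was not called without mouse 1 (0.41 ± 0.21, edgeR adjusted p = 0.123).

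With the mouse as a block, which both libraries of a mouse justify, TE was called for 3 genes in BM at day 10, against 5.21% of all genes: Mrpl30 (-0.93) and Mrps2 (-0.88) lower and Mrpl18 (0.75) higher, with edgeR adjusted p = 0.0469, 0.0535 and 0.0983. In B at day 10 it was called for Mrpl33 (-0.60, edgeR adjusted p = 0.0941, 2.6% of all genes). Without mouse 1, and with no block, 10 genes were higher in TE in BM at day 10 (10.4% of all genes) and 4 lower (11.1%). The 4 lower ones were Mrpl30, Mrps2, Mrps24 and Mrps30, and Mrpl18 led the 10 higher ones (0.94). For Mrps2 the RNA of BM at day 10 was 41.5, 46.1 and 47.8 CPM against 16.8, 22.3 and 17.2 in WT and the RPFs were 34.5, 39.8 and 36.1 against 30.5, 25.8 and 26.3. Both measures were above WT in every mouse, the RNA by 1.25 ± 0.16 and the RPFs by 0.40 ± 0.15 (edgeR adjusted p = 0.00057 and 0.0673).

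**Figure D5:**
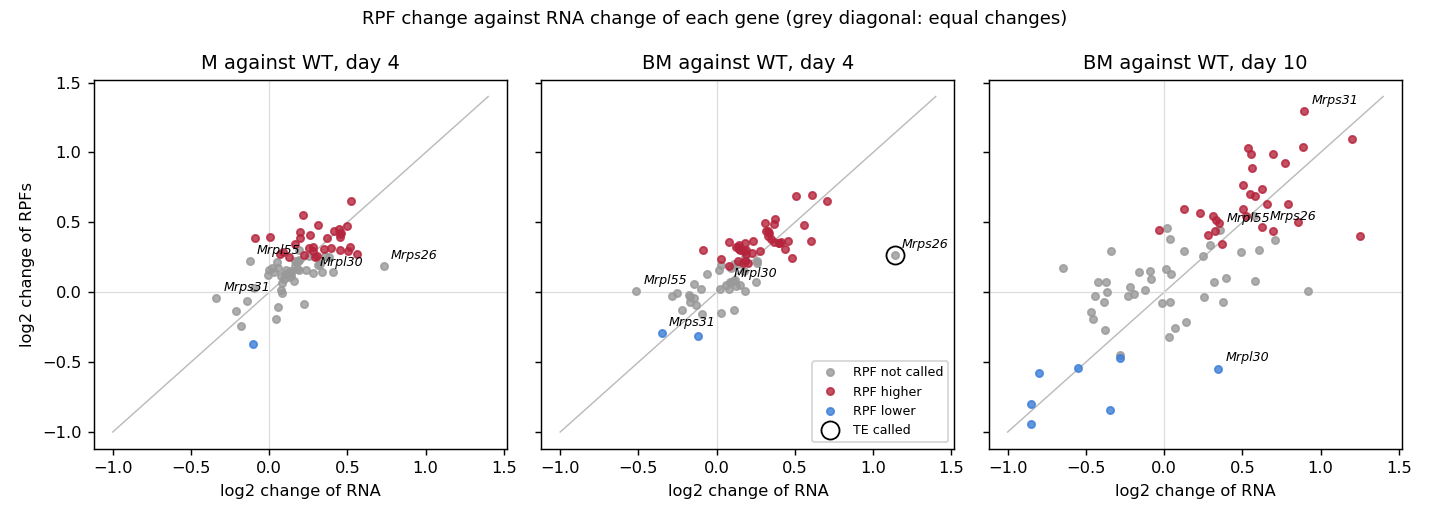
Fitted log2 change of RPFs (vertical) against that of RNA (horizontal) for each gene tested in both, in M and BM at day 4 and BM at day 10 against WT of the same day, with RPF calls in red (higher) and blue (lower) and equal changes on the grey line. Most genes lie near the line. Mrps26 (circled, TE called) lies far to its right in BM at day 4, with an RNA change of 1.14 and an RPF change of 0.26, and Mrpl30 lies in the lower right of BM at day 10.

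The M and BM comparisons of a day share their WT mice, so that calls in both are not independent. Of the 78 genes, 11 were higher in RPFs in all 4 (M and BM, days 4 and 10), 8 in 3, 14 in 2, 24 in 1 and 21 in 0. Of the 77 of them tested in all 4, 14.3% were higher in all 4 and 26% in none, beside 4.38% and 57.8% of all 10901 such genes. The 11 were Mrpl3, Mrpl12, Mrpl13, Mrpl15, Mrpl17, Mrpl19, Mrpl42 and Mrps30 of the large subunit and Mrps2, Mrps9 and Mrps35 of the small subunit. Of these, 8 have a bacterial homologue and 3 (Mrpl42, Mrps30 and Mrps35) are mitochondria-specific, and they include Mrps9, the lowest gene by WT level. In RNA 8 genes rose in all 4 (10.4% of the 77 tested in all 4, beside 3.53% of all genes), and of these Mrpl15, Mrpl17, Mrpl19, Mrps2, Mrps9, Mrps30 and Mrps35 also did so in RPFs.

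Calls were spread over the structural parts of the mitoribosome, and no difference between parts was tested. The counts of genes that rose stand beside 26.2% of all genes in BM and 18.5% in M at day 4, and 10.6% in M and 24.5% in BM at day 10. Of all genes 24.7% fell in BM at day 4 and 22.3% in BM at day 10. Without BM mouse 1 of day 10, 33.4% of all genes rose and 32.9% fell. In BM at day 4, 29 of 51 large subunit genes rose in RPFs and 0 fell, with a median of 0.24, and 11 of 26 small subunit genes rose and 2 fell, with a median of 0.19. In M at day 4, 18 of 51 and 13 of 25 rose, with medians of 0.22 and 0.25. By origin, 17 of 29 bacterial homologues and 12 of 22 mitochondria-specific proteins of the large subunit rose in BM at day 4, and 7 of 16 and 4 of 10 of the small subunit. Of the stalk and its base, Mrpl10, Mrpl11 and Mrpl12 of 5 genes rose in BM at day 4. Of the 7 proteins that line the exit tunnel, through which the new chain leaves, Mrpl4, Mrpl17 and Mrpl45 rose in M on both days and in BM at day 4. At day 10 Mrpl17, Mrpl23 and Mrpl24 rose in BM, while Mrpl4 (-0.07) and Mrpl45 (0.15) were not called. Without mouse 1 of that group 4 of the 7 were higher and Mrpl4 was lower (-0.34, edgeR adjusted p = 0.0556). Mrpl45 is known to anchor the ribosome to the inner membrane. Of the central protuberance, Mrpl18, Mrpl40 and Mrpl46 of 6 rose in BM at day 4 and none in BM at day 10, when Mrpl38 fell, but without mouse 1 the same 3 genes were called higher at day 10 as well (0.41, 0.35 and 0.51). In BM at day 10, 7 of 9 mitochondria-specific small subunit genes rose (Mrps18b, Mrps23, Mrps26, Mrps27, Mrps31, Mrps34 and Mrps35), beside 5 of 16 bacterial homologues of that subunit. Without mouse 1 these counts were 7 of 9 and 7 of 16, beside 33.4% of all genes higher.

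The 3 genes named Mrps18 were not tested against each other. Mrps18a, which sits in the large subunit, rose in RPFs in M (0.30 ± 0.10) and BM (0.48 ± 0.12) at day 4 and in M at day 10 (0.51 ± 0.10, edgeR adjusted p = 0.0476, 0.00671 and 0.0137). It was also called higher in B at day 10, by 0.34 ± 0.12 (edgeR adjusted p = 0.0912). Mrps18b was not called in RPFs at day 4 and rose at day 10, in M by 0.43 ± 0.12 and in BM by 0.99 ± 0.23 (edgeR adjusted p = 0.053 and 0.0141), with 64.3, 116 and 111 CPM in BM against 50.6, 49.8 and 45.1 in WT. All BM mice were above WT, mouse 1 least, and the change was 1.22 ± 0.11 without it. Mrps18c was not called in RPFs in any comparison with WT, with changes of -0.04 to 0.09. Mrps36, the gene outside the mitoribosome, was not called in RPFs either, and its RNA rose at day 10 in M and BM by 0.56 ± 0.19 and 0.58 ± 0.21 (edgeR adjusted p = 0.0868 and 0.0536).

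Other genes of mitochondrial translation were counted in RPFs in the same way, beside 26.2% of all genes higher and 24.7% lower in BM at day 4. In BM at day 4, 11 of 17 mitochondrial aminoacyl-tRNA synthetases rose and 0 fell, with a median of 0.45. Mars2, which charges the mitochondrial methionine tRNA, rose by 1.50 ± 0.16 and Iars2 by 0.79 ± 0.09 (edgeR adjusted p = 2.50e-05 and 2.84e-05). Of 24 assembly factors tested, 11 rose and 2 fell, led by the rRNA methyltransferase Mettl15 (1.20 ± 0.16), Noa1 (0.86 ± 0.11) and Mrm3 (0.85 ± 0.12). Translation factors rose in 5 of 14, with Guf1 at 0.71 ± 0.11, Tsfm, an elongation factor, at 0.67 ± 0.10 and Gfm1 at 0.35 ± 0.08. Of 10 genes of mitochondrial DNA transcription and maintenance 6 rose, with Polg2 (0.86 ± 0.18) and Lrpprc (0.67 ± 0.09) highest. Of the 5 mitoribosome proteins with other symbols, Ptcd3 (0.92 ± 0.09) and Dap3 (0.44 ± 0.08), both of the small subunit, rose. The synthetases were called higher in 13 of 17 in M at day 4 (18.5% of all genes) and 11 of 17 in M at day 10 (10.6%). In BM at day 10, 7 were called higher (24.5%) and 4 lower (22.3%), with the same counts without mouse 1 (33.4% and 32.9% of all genes). The lower ones were Aars2, Cars2, Hars2 and Sars2.

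Cytosolic ribosomal protein genes, which encode the ribosome that makes these proteins, had larger medians in RPFs. There the median was 0.63 in M and 0.86 in BM at day 4, with 75 and 77 of 79 called higher (18.5% and 26.2% of all genes), and 0.74 in BM at day 10, with 51 of 79 (24.5%). In M at day 10 their median was 0.24 and 0 of 79 were called in RPFs (10.6% of all genes higher), while 76 of 81 rose in RNA (8.53%) with a median of 0.81. The mitochondrial set had medians of 0.19 in RPFs and 0.18 in RNA in that comparison, with 20 and 15 genes called. The difference between the sets was not tested.

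Promoter letters were examined because many of the genes moved together in MYC livers. RefSeq promoters, from 250 bases before to 50 bases after the start (GRCm38.p6 table), were found for 69 of the 78 genes and for 27025 genes in all. The E-box CACGTG, to which MYC and MAX bind, was present on either strand in 5 of 69 (7.25%), beside 8.09% of all genes. The ETS motif CCGGAAG was present in 26 (37.7%), beside 9.93%, the NRF1 half-site TGCGCA in 21 (30.4%), beside 8.79%, the YY1 motif AAGATGG in 13 (18.8%), beside 7.28%, and the CCAAT box in 27 (39.1%), beside 41.1%. None of these motifs contains another, although they can lie side by side. The windows of the set also held more CpG dinucleotides (median 21 beside 7) and a higher GC content (58.7% beside 52.7%), whose part in the motif shares was not tested. Of the 11 genes higher in all 4 comparisons 7 had a promoter, of which 0 held the E-box, 2 the ETS motif, 2 the NRF1 half-site, 4 the CCAAT box and 1 the YY1 motif. A match describes letters and is no measured binding site.

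The E-box genes are shown because MYC was the activated factor, each as a stretch of 30 bases, 5′ to 3′ on the strand of the gene, with the motif in capitals and its place in GRCm39 found by exact match.
Mrpl2, chr17:46957004-46957033, plus strand: actgccgcccgtCACGTGacccgagcaacc
Mrpl20, chr4:155887290-155887319, plus strand: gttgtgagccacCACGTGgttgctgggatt
Mrpl36, chr13:73479073-73479102, plus strand: cacacgtcatccCACGTGaccttacgccat
Mrpl37, chr4:106924208-106924237, minus strand: agcaagtttcttCACGTGtggcacttcaga
Mrps18c, chr5:100946450-100946479, plus strand: gcagccccgggtCACGTGacttccggcccg

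In RPFs Mrpl2 rose in M at day 4, Mrpl37 in BM at day 4 and Mrpl20 in BM at day 10, and Mrpl36 and Mrps18c were not called in any of the 4 comparisons. The promoter of Mrps18c also holds the ETS motif, read on the other strand within the stretch above, and that of Mrpl36 the NRF1 half-site. The next stretches show these 2 more frequent motifs in genes picked from those called higher in all 4 comparisons (Mrpl17, Mrpl3 and Mrps9) or in 3 (Mrps18a). Also called in 3 but not shown are Mrpl21 and Mrps27 (ETS motif) and Mrpl45 (NRF1 half-site), nor is the NRF1 half-site of Mrps18a. Most other genes that hold these motifs were called in fewer comparisons, so the choice says nothing of a link between motif and change.
Mrpl17, ETS motif, chr7:105460513-105460542, minus strand: gcatgctccgcCCGGAAGgcgcctcctcca
Mrpl17, NRF1 half-site, chr7:105460327-105460356, minus strand: ggcaggctctgaTGCGCAcgcgcaaacgcg
Mrpl3, ETS motif, chr9:104930437-104930466, plus strand: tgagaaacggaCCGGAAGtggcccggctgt
Mrps18a, ETS motif, chr17:46421893-46421922, plus strand: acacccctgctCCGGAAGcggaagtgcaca
Mrps9, NRF1 half-site, chr1:42890381-42890410, plus strand: gaggtctgcgccTGCGCAgtctccaggctc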

How the data were processed

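RPF and cytoplasmic RNA libraries of 24 mice were analysed. Per the study's methods, the authors trimmed reads with cutadapt 1.18, removed duplicates by unique molecular identifiers and aligned RPFs, with BBmap, to 1 protein-coding transcript a gene, that with the highest mean TPM (GENCODE vM27, GRCm39). The deposited RPF values are counts per coding sequence over all reading frames, leaving out 20 codons at the start and 10 at the end. Cytoplasmic RNA was aligned with Bowtie2 2.3.5.1 and quantified with RSEM 1.3.3, and the deposited expected counts per isoform were summed per gene here and rounded, while the TPM deposited by the authors were summed for levels. The trimmed ends leave out ribosomes paused at start and stop codons, and short coding sequences lose most of their counts.

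Counts were fitted with edgeR 4.0.16 (quasi-likelihood F test, TMM, filterByExpr with a minimum count of 10 and a minimum total of 15) in R 4.3.3 on the mice of the groups compared, with Benjamini-Hochberg adjustment over all genes tested. Within RPFs and within RNA each sample label names a separate mouse, so their p-values measure the spread between mice. Of the 78 genes, 76 to 78 passed the filter in each comparison, the missing ones being Mrps33 and Mrps6. TE was an interaction of genotype and library type. The same mouse gave both libraries, whose deviations correlated by 0.303 to 0.681 in all 24 mice. The main TE fit took them as independent, so its p-values and intervals do not measure the spread between mice as a paired fit would. In BM at day 4 it called 2.23% of all genes, against 6.17% with the mouse as a block. No replicate pair agreed within counting noise (chi-square per gene at least 2.98). The 78 genes, the gene lists and the tests were chosen with earlier results of these data known. Coding lengths came from GENCODE vM39 by transcript, where 14 of 78 transcripts had the same version, and positions are those of vM39. Named genes were the 5 with the largest RPF increase and up to 5 called lower in M or BM at day 4 and BM at day 10, TE calls, the 3 highest and lowest by WT level and members of fixed lists, and the other genes named were chosen after their values were seen. Alternatives were RLE factors, no filter, DESeq2 1.42.0, replicate blocks, leaving out each mouse and library totals without TMM.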

Additional observations from a re-analysis of the deposited data

Results flagged for a closer look

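Differences between the BM effect at day 10 and that at day 4, each from a contrast over 12 mice, were picked out for a closer look. In RPFs the effect was higher at day 10 for 13 genes of the set and lower for 10, and in RNA higher for 10 and lower for 10. Of all genes 17.2% and 18.6% were called in RPFs and 13.4% and 16.6% in RNA, and the shares of the set, 16.7% and 12.8% in RPFs and 12.8% and 12.8% in RNA, were no higher with all mice. Without BM mouse 1 of day 10, 23 of 78 were higher and 15 lower in RPFs (25.8% and 31.5% of all genes). In RNA 17 were higher and 15 lower (19.7% and 23.8%). The share of the set that was higher was then slightly above that of all genes in both. Among the genes named for BM at day 10, the difference on the log2 scale in RPFs was 1.60 for Mrps31, 0.79 for Mrpl54, 0.76 for Mrpl15, 0.64 for Mrpl3 and 0.58 for Mrpl13. It was -0.91 for Mrpl14, -0.89 for Mrpl49, -0.85 for Mrpl39, -0.82 for Mrps24 and -0.59 for Mrpl30. Leaving out 1 of the 12 mice ended the call in 11 cases for Mrpl3, 7 for Mrpl30, 6 for Mrps24 and 5 for Mrpl13, and in none for the other 6 genes. Groups of 3 mice were too small for a test of single outlying samples.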

How the results depend on the processing

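Counts in this section are of the mitochondrial ribosomal protein genes alone. They show how far a setting moved them, not how the set stands beside all genes. With RLE factors all 26 counts of genes called, all 12 medians and all 34 changes of named genes kept their side of the threshold or stayed within 1.5 times. Without a filter on low counts 22 of 26 counts did, with 0 genes in RPFs and 1 in RNA for B at day 4, 6 in RPFs for BM against M at day 4 and 14 in RNA for BM against M at day 10. DESeq2 kept 14 of 26 counts. It called 0 in RPFs for B and 16 in RPFs and 8 in RNA for M at day 4, 13 in RNA for BM at day 4, 4 in RPFs and 1 in RNA for B at day 10, 6 in RNA for M and 23 in RNA and 2 in TE for BM at day 10. For BM against M it called 4 in RPFs and 2 in RNA at day 4 and 10 in RNA at day 10. The cause was not tested.

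Same-numbered mice of different genotypes share only a number: deviations of same-numbered mice correlated over 0.1 in 8 of 36 pairs in RPFs and 15 of 36 in RNA. With the replicate number as a block the count was 0 in RPFs for B at day 4, 8 in RPFs for BM against M at day 4 and 12 in RNA for BM against M at day 10, and 17 of 20 counts stayed within 1.5 times. Of the changes of named genes 31 stayed the same under this block and 2 were weaker. With the mouse as a block, which does pair the RPF and RNA library, TE was called for 1 gene in B and 3 in BM at day 10, and it changed no other count.

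With library totals in place of TMM, an alternative chosen after seeing the data, RPF and RNA counts were 3 and 4 for B, 68 and 70 for M and 74 and 75 for BM at day 4, and 17 and 19 for B and 58 and 30 for M at day 10. For BM against M they were 33 and 15 at day 4, and 27 in RPFs at day 10. The medians of the set in RPFs and RNA were 0.10 and 0.22 for B, 0.44 and 0.54 for M and 0.65 and 0.70 for BM at day 4, and 0.21 and 0.31, 0.44 and 0.37, and 0.66 and 0.66 at day 10. These moved with the medians of all genes, which were 0.10 to 0.54 under this scaling. The share of all genes called under it is not given here, so the counts do not set these genes apart. Mrps12 (0.11) and Mrps31 (0.14) reversed in BM at day 4.

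Leaving out each mouse in turn gave ranges of RPF and RNA counts of 0 to 1 and 0 to 0 for B, 16 to 31 and 8 to 16 for M and 28 to 38 and 12 to 19 for BM at day 4. At day 10 they were 0 to 7 and 0 to 7 for B, 10 to 23 and 4 to 16 for M, and 15 to 52 and 20 to 39 for BM. For BM against M they were 3 to 11 and 1 to 7 at day 4 and 1 to 45 and 4 to 36 at day 10. For the day difference they were 9 to 38 and 11 to 32 in BM and 0 to 3 in RPFs in M. TE counts in BM were 0 to 1 at day 4 and 0 to 14 at day 10. The upper ends of BM at day 10 came without BM mouse 1. The RNA medians were 0.14 to 0.25 in M and 0.13 to 0.20 in BM at day 4, and 0.17 to 0.28 in BM at day 10. Low counts left out Mrps6 in RNA of M at day 10 (4 to 29 counts a library over all RNA libraries), and Mrps33 in RPFs of several comparisons, where only 15 bases are counted.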
